A study of Mus musculus with 18 samples.

Results

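Amino acid deprivation was followed here in mouse embryonic fibroblasts that lack the transcription factor ATF4. The members were the 3 Atf4-/- arrays in amino acid-deprived medium (labelled AAD) and the 3 Atf4-/- arrays in normal medium (labelled REG), 6 of the 18 arrays of the series, chosen by genotype and medium and paired by replicate number. The other arrays came from wild-type (WT) and Cebpg-/- fibroblasts in the same 2 media, 3 arrays to each group, and were used to show where the response without ATF4 differed. All cells were fibroblasts taken from E13.5 embryos and passaged 2 to 3 times, plated for 24 h and then given fresh normal or AAD medium for 3 h before total RNA was prepared. The AAD medium was a Krebs-Ringer salt buffer with supportive supplements that the labels do not name, and whether serum and growth factors were the same in both media is not stated in the labels. Neither do the labels say whether replicates came from separate embryos or how the Atf4 and Cebpg alleles were made, and every p-value therefore rests on the scatter among these arrays alone, which may be technical.

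When amino acids run short, uncharged transfer RNAs activate the kinase GCN2, which phosphorylates the initiation factor eIF2 and slows most translation while letting ATF4 be made. ATF4, usually paired with a C/EBP protein such as C/EBPγ, then switches on genes for amino acid synthesis, amino acid uptake, transfer RNA charging and further stress regulators. Starved cells also have routes that do not need ATF4 by their textbook description: loss of growth factor signalling frees FOXO factors to enter the nucleus, loss of mTORC1 activity frees TFEB and TFE3, which serve lysosomes and autophagy, and loss of ERK activity lowers its feedback genes.

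The targeted gene was read first. The brightest Atf4 probe set stood at log2 values of 6.32, 6.56 and 6.63 in the Atf4-/- replicates in normal medium and at 6.19, 6.55 and 6.60 in AAD medium, against a mean of 12.10 ± 0.07 (SD, n = 3) in WT cells in normal medium. All 6 Atf4-/- arrays were thus far below WT, and their change under AAD was -0.06 ± 0.05 (log2, SE, n = 3 pairs, adjusted p = 0.569). Cebpg, which encodes C/EBPγ, stood at 8.06, 7.97 and 7.70 in normal medium and at 8.01, 7.96 and 7.76 in AAD medium in Atf4-/- cells, a change of 0.00 ± 0.06 (adjusted p = 0.985), while it rose by 1.06 ± 0.06 in WT. In the cells labelled Cebpg-/- the same Cebpg probe set stood at 9.31 ± 0.06 (SD, n = 3) in normal medium, beside 9.27 ± 0.09 in WT, and at 9.59 ± 0.21 in AAD medium. Its level thus did not set these cells apart from WT in normal medium. In AAD medium it lay below the 10.33 ± 0.12 of WT, without overlap. Another Cebpg probe set was lower than in WT in both media, at 7.75 ± 0.03 against 8.25 ± 0.10 in normal medium. In AAD medium it was at 8.21 ± 0.11 against 9.26 ± 0.22. The dimmest Cebpg probe set was higher than in WT in normal medium (5.87 ± 0.13 against 5.38 ± 0.21). Because the positions of these probe sets relative to the deletion are not stated, the Cebpg-/- label was not checked here.

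Of the 15 fibroblast markers all passed the filter on low values, and their summed signal ran from 48520 to 51384 in Atf4-/- cells in normal medium and from 49417 to 52824 in AAD medium. In WT cells in normal medium the same sum was higher, at 71974 to 75364. Macrophage markers were present too, at a summed signal of 19377 to 25174 in Atf4-/- cells and 12163 to 12449 in WT cells in normal medium. Of the markers of other types, 3 of 10 endothelial, 3 of 11 skeletal muscle, 4 of 11 dendritic and lymphoid, 7 of 11 epithelial and 9 of 10 neural genes passed the filter, with summed signals of the lists between 147 and 983 in Atf4-/- cells in normal medium. Because these are bulk cultures, fewer cells of a type and less RNA per cell cannot be told apart.

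Fewer genes were called under AAD without ATF4 than with it, and most changes were under 2-fold. Of 13728 genes tested, 1523 (11.1%) were called in Atf4-/- cells at a limma adjusted p under 0.05, 881 higher (6.42%) and 642 lower (4.68%), while 5380 (39.2%) were called in WT cells and 4663 (34%) in Cebpg-/- cells. The median called change was 0.34 on the log2 scale upward and -0.30 downward, and 25 genes (0.182%) rose and 7 (0.051%) fell by at least 2-fold. Of the 881 higher genes 880, and of the 642 lower genes all 642, changed in the same direction in each of the 3 pairs. The 2 groups of arrays did not overlap, with every AAD array above every normal array, for 1582 genes (11.5%), and with every AAD array below for 1314 genes (9.57%). The calls rested on all 3 pairs: 828, 686 and 826 genes were called without Atf4-/- replicate 1, 2 and 3, and 645 were called when the pairing was left out of the fit, 644 of them among the 1523.

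Most of the genes called in Atf4-/- cells moved as in WT cells, many of them less far. Of the 881 higher genes, 544 were also higher in WT, which is 61.7% of the Atf4-/- list and 20.2% of the WT list of 2687 (19.6% of all genes tested). Of the 642 lower genes, 342 were also lower in WT, 53.3% of the Atf4-/- list and 12.7% of the WT list of 2693 (19.6%). A difference between the responses was called for 3270 genes against WT cells (23.8%) and for 1824 genes (13.3%) against Cebpg-/- cells. Without the pairing these counts were 1752 and 728, and the second was 1134 without Atf4-/- replicate 2 and 1114 without replicate 3.

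The called genes were sorted by their relation to WT. In the first class, 524 genes (292 higher, 232 lower) were called in the same direction in WT with no called difference between the responses, and for 272 and 226 of these the 95% interval of the difference lay within 1.5-fold. A second class of 342 genes moved the same way but less, with median responses of 0.38 in Atf4-/- against 1.00 in WT for the 242 higher genes and -0.34 against -0.81 for the 100 lower ones. Only 20 genes moved the same way and further than in WT, 10 in each direction. Another 227 genes were not called in WT and differed from it, 269 were not called in WT without a called difference, and 141 went against the WT direction. Read the other way, of the 248 genes (1.81%) that rose by at least 2-fold in WT, 134 also rose in Atf4-/- cells, 7 fell and 107 were not called, and their median response was 1.35 in WT, 0.29 in Atf4-/- and 1.16 in Cebpg-/- cells.

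**Figure D1:**
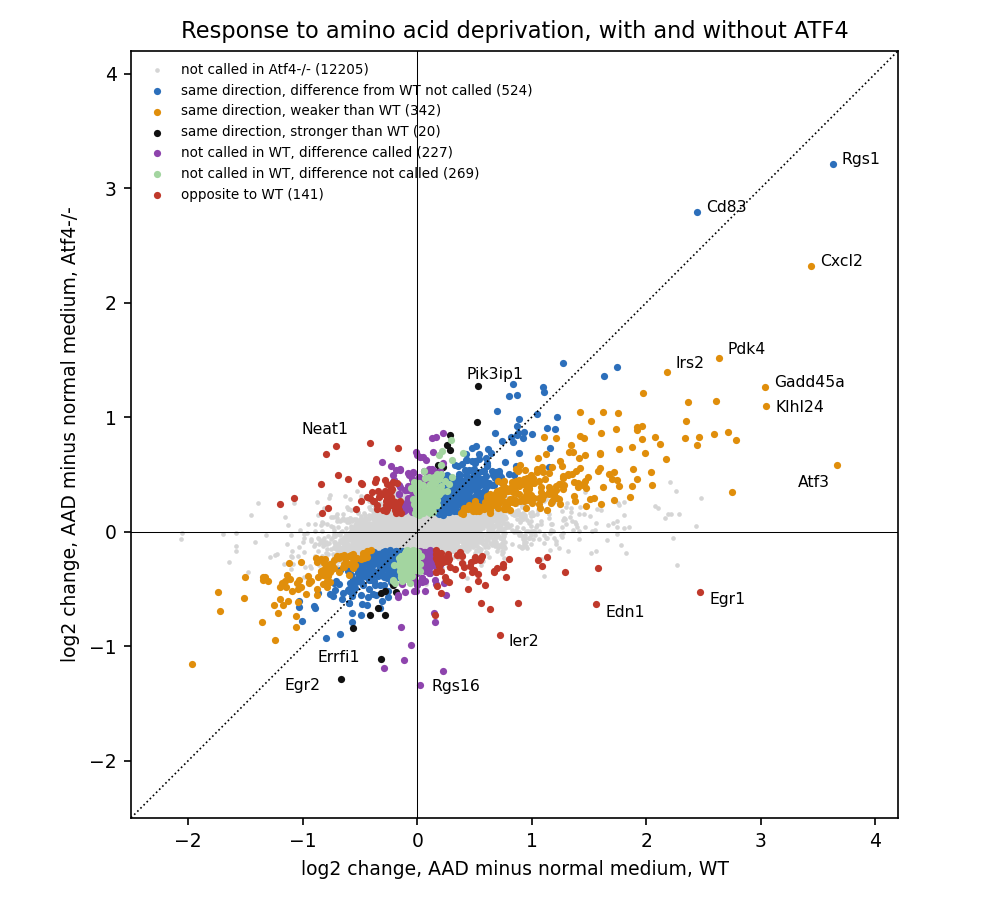
Each point is 1 of 13728 genes, with the log2 change under AAD in WT cells on the x axis and in Atf4-/- cells on the y axis (means of 3 pairs), coloured by class; the dotted line marks equal changes. The 342 genes that moved less than in WT lie between the x axis and the dotted line, Rgs1 and Cd83 lie near the line at 3.21 and 2.79 in Atf4-/- cells, and Egr1, Edn1 and Ier2 lie on opposite sides of 0 in the 2 genotypes.

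Genes of the FOXO type, a set that loss of insulin signalling switches on, gave several of the largest rises. Of 35 members tested, 16 rose, 1 fell and 18 were not called, at a median change of 0.21, beside a median of 0.01 and 6.42% called higher over all genes. The count of rises was 13 to 15 when 1 Atf4-/- pair was left out. Pdk4 encodes a kinase that shuts off pyruvate dehydrogenase in fasting. It stood at 6.45, 6.18 and 7.11 in the 3 replicates in normal medium and at 8.11, 7.74 and 8.45 in AAD medium, so that every AAD array was above every normal array. Its rise of 1.52 ± 0.08 (2.86-fold, adjusted p = 5.26e-06) was smaller than the 2.63 of WT, with a difference of -1.12 (adjusted p = 7.5e-05) that was not called without the pairing (adjusted p = 0.115).

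Irs2 encodes an insulin receptor substrate. Its values went from 6.55, 6.76 and 6.71 to 7.94, 8.13 and 8.14, without overlap, a rise of 1.40 ± 0.07 (adjusted p = 5.26e-06) against 2.18 in WT. Fbxo32 (atrogin-1), a ubiquitin ligase subunit of muscle wasting, went from 8.47, 8.50 and 8.37 to 9.91, 9.76 and 9.55. Its rise of 1.29 ± 0.17 (adjusted p = 0.00101) was not called as different from the 0.83 of WT, and the 95% interval of the difference ran from -0.06 to 0.98.

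Pik3ip1, which encodes a membrane protein that restrains PI3 kinase, had a larger response than in WT. It stood at 6.09, 6.23 and 6.42 in normal medium and at 7.47, 7.55 and 7.53 in AAD medium. The rise was 1.27 ± 0.08 (adjusted p = 1.83e-05) in Atf4-/- cells, 0.53 in WT and 0.59 in Cebpg-/- cells, and the response in Atf4-/- cells exceeded that of WT by 0.74 (adjusted p = 0.00165). A second Pik3ip1 probe set rose by 0.95.

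Other members rose by less than in WT. Gadd45a, a growth arrest gene, went from 9.08, 8.96 and 9.44 to 10.40, 10.27 and 10.60, a rise of 1.26 ± 0.07 against 3.04 in WT. Txnip, which limits glucose uptake and binds thioredoxin, went from 10.04, 9.86 and 9.80 to 10.95, 10.91 and 10.97. The groups did not overlap, and the rise was 1.05 ± 0.06 (adjusted p = 9.05e-06) against 1.62 in WT. Ccng2 (cyclin G2, 0.90 ± 0.06), Trp53inp1 (0.89 ± 0.07), a gene of autophagy and cell death, and the cell cycle repressor Hbp1 (0.76 ± 0.07) rose as well, at 1.74, 1.92 and 2.12 in WT. For Hbp1 1 of the 4 probe sets moved by only 0.12. Bcl2l11, which encodes the death protein BIM, rose by 0.84 ± 0.06 in Atf4-/- cells and by 0.87 in WT, with the 95% interval of the difference from -0.23 to 0.16. Bcl6, a transcriptional repressor, was the member that fell (-0.62).

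**Figure D2:**
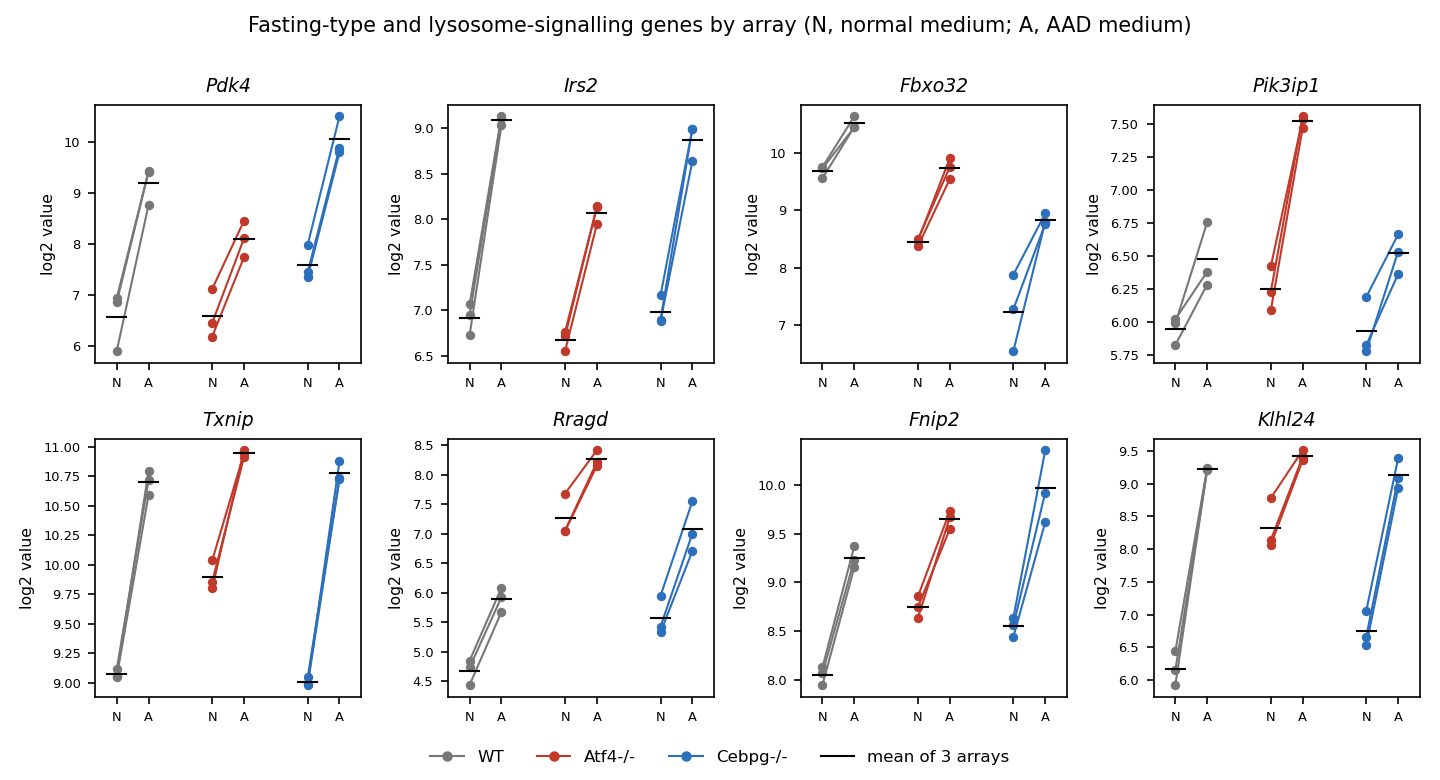
Log2 values of 8 genes on every array, in normal (N) and AAD (A) medium for WT, Atf4-/- and Cebpg-/- cells; lines join arrays of 1 replicate number and bars mark the mean of 3 arrays. In Atf4-/- cells the AAD arrays lie above the normal arrays for each gene, and Pik3ip1 reaches 7.47 to 7.55 there, above the AAD arrays of the other genotypes.

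Promoter sequence was set beside the rises because FOXO proteins bind a known short word. The windows were RefSeq's (GRCm38.p6), from 250 bases before to 50 after each gene start, and 720 of the 881 higher genes and 531 of the 642 lower genes had at least 1. The letters GTAAACA, on either strand, stood in 4.49% of the windows of higher genes, 1.53% of those of lower genes, 2.7% of those of all genes tested and 3.65% of all windows. Of the 25 windows of genes that rose by at least 2-fold, 3 (12%) held it, those of Tmem140, Pim1 and Txnip. The C/EBP-ATF composite, searched as TGATGCAA or TGATGAAA, stood in 1.99% of windows of higher genes and 1.1% of those of genes tested, and in none of the 25. The letters TCACGTGA, a word of TFEB-type factors, stood in 2.51% and 1.65% in the same order, TGACGTCA (the CRE) in 3.55% and 2.8%, and TGACTCA (AP-1) in 4.81% and 4.03%. In windows of lower genes the shares were 0.459% for the composite, 1.53% for TCACGTGA, 3.68% for the CRE and 3.06% for AP-1. The CRE share was thus no smaller in lower genes than in higher ones. These shares are descriptions, and a match is not shown to be a bound site.

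The stretches around the match are given for 6 genes, chosen after the matches were seen, with the matched letters in capitals, to show what the words look like in place. The windows of Bbc3, Sesn1, Klf9, Rrp1b and Zfp874b (FOXO letters), Herpud1 (composite), Mlx (TFEB-type letters) and Ddit3 and Mt2 (AP-1) held matches too. So did those of Errfi1, Flcn, Ppan, Ch25h, Slc38a6, Cdkn2b and Zfp874b (CRE), and none of these is printed. Rrp1b, with FOXO letters, was called lower in Atf4-/- cells. This listing does not cover every chromosome. The first 5 printed stretches hold the FOXO letters or their reverse complement. The last holds the C/EBP-ATF composite in reverse complement, in Chac1, a glutathione-degrading enzyme gene that ATF4 is known to drive. Each is written 5′ to 3′ on the strand of the gene.
Tmem140: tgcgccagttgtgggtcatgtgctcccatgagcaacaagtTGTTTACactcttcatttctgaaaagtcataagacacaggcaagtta
Pim1: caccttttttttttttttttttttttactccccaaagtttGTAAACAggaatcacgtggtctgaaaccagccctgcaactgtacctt
Txnip: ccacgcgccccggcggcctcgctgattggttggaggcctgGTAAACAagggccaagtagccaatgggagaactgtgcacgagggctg
Bcl2l11: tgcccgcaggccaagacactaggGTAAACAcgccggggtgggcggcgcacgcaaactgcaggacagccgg
Hbp1: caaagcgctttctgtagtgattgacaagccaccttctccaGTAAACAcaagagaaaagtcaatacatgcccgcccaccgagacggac
Chac1: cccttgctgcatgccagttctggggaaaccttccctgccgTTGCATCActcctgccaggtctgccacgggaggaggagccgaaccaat
The match of Tmem140 (chr6:34862990-34863076, plus strand) began 116 bases before the start, and its window held a second match 5 bases before it. That of Pim1 (chr17:29492975-29493061, plus strand) began 70 bases before, that of Txnip (chr3:96557796-96557882, plus strand) 121, that of Bcl2l11 (chr2:128125788-128125857, plus strand) 227 and that of Hbp1 (chr12:31950348-31950434, minus strand) 149. The Chac1 match (chr2:119351009-119351096, plus strand) began 193 bases before the start.

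Tmem140, a little-studied membrane protein gene, was among the most even of the rises. It went from 5.75, 5.72 and 5.70 in normal medium to 7.12, 7.05 and 7.07 in AAD medium, a rise of 1.36 ± 0.10 (adjusted p = 3.34e-05) against 1.63 in WT, with the 95% interval of the difference from -0.59 to 0.05. Pim1, a survival kinase gene, went from 9.79, 9.83 and 9.79 to 11.00, 11.03 and 11.00, a rise of 1.21 ± 0.07 (adjusted p = 6.37e-06).

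Genes of lysosomal nutrient signalling rose in the same cells. In the list of TFEB-type autophagy and lysosome genes 21 of 45 members rose, 1 fell and 23 were not called, at a median of 0.17. That is 46.7% higher, beside 6.42% over all genes tested. The rises numbered 15, 10 and 10 without Atf4-/- replicate 1, 2 and 3, and 9 without the pairing, and the fall was called under none of these settings. Rragd encodes a Rag GTPase that brings mTORC1 to the lysosome. It stood at 7.05, 7.06 and 7.68 in normal medium and at 8.15, 8.22 and 8.42 in AAD medium, without overlap. The rise was 1.00 ± 0.08 (2.00-fold, adjusted p = 4.69e-05) in Atf4-/- cells and 1.22 in WT, and the 95% interval of the difference ran from -0.47 to 0.03. Fnip2, a partner of folliculin, went from 8.64, 8.75 and 8.86 to 9.67, 9.54 and 9.73, a rise of 0.90 ± 0.09 (adjusted p = 0.000162) beside 1.20 in WT. Flcn, which encodes folliculin itself, rose less, from 8.90, 9.04 and 9.24 to 9.48, 9.53 and 9.67, by 0.50 ± 0.08 (adjusted p = 0.00255), and this was below the 1.67 of WT, a difference of -1.17 (adjusted p = 4.98e-05). Tfeb (-0.09) and Tfe3 (-0.14) themselves were not called.

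The list of mTORC1 brakes holds genes whose products lower mTORC1 activity, and also Eif4ebp1 and Eif4ebp2, which encode targets of mTORC1. In it 5 of 21 members (23.8%, beside 6.42% over all genes) rose (Ddit4l, Ddit4, Sesn1, Castor2 and Eif4ebp1). None fell, and the median was 0.15, beside 0.08 in WT. Without the pairing 1 of 21 rose, and without Atf4-/- replicate 1, 2 or 3 the counts were 2, 2 and 3. Ddit4, which encodes REDD1, went from 9.83, 9.84 and 10.21 to 10.29, 10.34 and 10.61, a rise of 0.45 ± 0.08 (adjusted p = 0.00468, or 0.111 without the pairing) beside 0.96 in WT. Sesn2, a leucine sensor gene that ATF4 is known to drive, was at -0.09 ± 0.08 (adjusted p = 0.524).

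The integrated stress response regulators were in part still responsive. Of 30 members tested 16 rose, 3 fell (Ppp1r15b, Nfil3 and Eif2ak4) and 11 were not called, at a median of 0.23, against a median of 0.94 in WT. The shares were 53.3% higher and 10% lower, beside 6.42% and 4.68% over all genes. The list, which includes Klhl24 and Pnrc1, was chosen with earlier results of these data known, so these shares are not independent of them. The rises numbered 13, 11 and 13 and the falls 1, 1 and 2 without Atf4-/- replicate 1, 2 and 3, and without the pairing there were 10 and 2. Klhl24, which encodes a ubiquitin ligase adaptor, went from 8.07, 8.14 and 8.78 to 9.36, 9.41 and 9.51. Its rise of 1.10 ± 0.11 (adjusted p = 0.000242) was below the 3.05 of WT, a difference of -1.95 (adjusted p = 2.5e-05), and it started from a mean of 8.33 in Atf4-/- cells against 6.18 in WT cells. Ddit3, which encodes the death-linked factor CHOP, went from 9.39, 9.22 and 9.18 to 10.20, 10.07 and 10.08, a rise of 0.85 ± 0.08 (adjusted p = 0.000132) against 2.59 in WT. Cebpb, a C/EBP partner of ATF4, went from 9.59, 9.83 and 9.68 to 10.53, 10.53 and 10.52, a rise of 0.82 ± 0.07 (adjusted p = 5.18e-05) beside 1.11 in WT. Pnrc1, a nuclear receptor coactivator gene, rose by 0.87 ± 0.08, against 2.71 in WT, which gives a difference of -1.85 (adjusted p = 3.18e-06).

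Of the known ATF4 targets for amino acid supply few were called in Atf4-/- cells. In the list of amino acid synthesis enzymes 2 of 22 members rose, Chac1 and Gclc, which are glutathione enzyme genes and not genes of amino acid synthesis. Of the carriers 2 of 27 rose, Slc7a2 and Slc38a6, and of the 19 aminoacyl-tRNA synthetases none was called. The shares higher, 9.09% and 7.41% for the enzymes and carriers, lie near the 6.42% over all genes, and the enzymes numbered 2, 1 and 3 without Atf4-/- replicate 1, 2 and 3. Without the pairing no member of these lists was called, and the carriers had no call without Atf4-/- replicate 2 or 3. Chac1 went from 5.18, 5.14 and 5.37 to 5.82, 5.77 and 6.17, a rise of 0.69 ± 0.12 (adjusted p = 0.00492, or 0.0906 without the pairing), far below the WT level of 9.27 in normal medium. The genes that follow were chosen after their values were seen. Trib3, a pseudokinase gene induced by ATF4, was at 5.87, 5.61 and 5.86 and at 6.02, 5.91 and 5.76 in the same order, with overlapping groups. Its change of 0.12 ± 0.13 (adjusted p = 0.605) stood against 2.16 in WT, a difference of -2.04 (adjusted p = 3.95e-05). Asns, the asparagine synthetase gene, changed by 0.02 ± 0.07 (adjusted p = 0.903) in Atf4-/- cells and by 0.33 in WT. The cystine carrier gene Slc7a11 lay between 4.35 and 4.52 on all 6 Atf4-/- arrays, under the level of 4.65 that the filter on low values required of at least 1 group, so no size of change can be read from it there.

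The 3 largest rises were in genes best known from macrophages, dendritic cells and other immune cells. Rgs1, a regulator of G protein signalling, stood at 5.03, 5.21 and 5.09 in normal medium and at 8.60, 7.94 and 8.41 in AAD medium. Its rise of 3.21 ± 0.20 (9.26-fold, adjusted p = 9.49e-06) lay beside 3.63 in WT, and the 95% interval of the difference ran from -1.03 to 0.20. Cd83, an activation marker of dendritic cells, went from 4.95, 4.97 and 4.75 to 7.54, 7.47 and 8.02, a rise of 2.79 ± 0.16 (6.91-fold, adjusted p = 6.37e-06) beside 2.44 in WT. The 95% interval of that difference was -0.15 to 0.84.

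Cxcl2, a neutrophil chemokine gene, went from 4.20, 4.23 and 4.44 to 6.23, 6.78 and 6.82, a rise of 2.32 ± 0.13 with a difference from WT of -1.12 (adjusted p = 0.00208). Ccl3, a macrophage chemokine gene, went from 4.32, 4.65 and 4.28 to 5.52, 6.18 and 5.87 (1.44 ± 0.12, adjusted p = 6.82e-05), and Clec4e (Mincle), a receptor for microbial and dead-cell lipids, from 3.99, 4.01 and 3.60 to 5.27, 5.29 and 5.47 (1.48 ± 0.12, adjusted p = 6.64e-05). These 3 genes began at or under 4.65, so the size of their rise is uncertain. Cd83 and Rgs1 began only a little above that level, which limits the size read for them too. In Cebpg-/- cells the same 5 genes rose by 5.06, 3.56, 4.74, 3.21 and 3.07, in the order Rgs1, Cd83, Cxcl2, Ccl3 and Clec4e.

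Most of the macrophage markers that were called fell. Of 20 tested, 8 fell (Lyz2, Lyz1, C1qa, Fcgr3, C1qb, C1qc, Tyrobp and Ctss), 1 rose (Cd68) and 11 were not called, at a median of -0.22. That is 40% lower, beside 4.68% over all genes. The falls numbered 5, 8 and 7 without Atf4-/- replicate 1, 2 and 3, and 3 without the pairing, and Cd68 was called under none of these settings. The summed signal of the list lay between 19377 and 25174 in normal medium and between 11963 and 16822 in AAD medium, without overlap. On this linear scale bright members such as Lyz1 and Lyz2 weigh most. The median log2 level of the list on each array did overlap, at 7.971 to 8.209 in normal medium and 7.768 to 8.06 in AAD medium. Lyz2, the macrophage lysozyme gene, went from 12.18, 12.32 and 12.73 to 11.12, 11.45 and 11.83 (-0.95 ± 0.05, adjusted p = 5.58e-06), and C1qa, a complement gene, from 9.02, 8.92 and 9.04 to 8.32, 8.20 and 8.46. Csf1r, the receptor that defines the lineage, was at 10.20, 9.92 and 10.30 and at 9.96, 9.82 and 10.25, with overlapping groups (-0.13, adjusted p = 0.206). The part of these cells in the rises of Rgs1, Cd83 and the chemokines was not tested. Over the wider list of inflammatory mediators 9 of 39 rose (23.1%) and 6 fell (15.4%), or 5 and 3 without the pairing, among the falls Csf3, the gene of a granulocyte growth factor (-0.83).

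**Figure D3:**
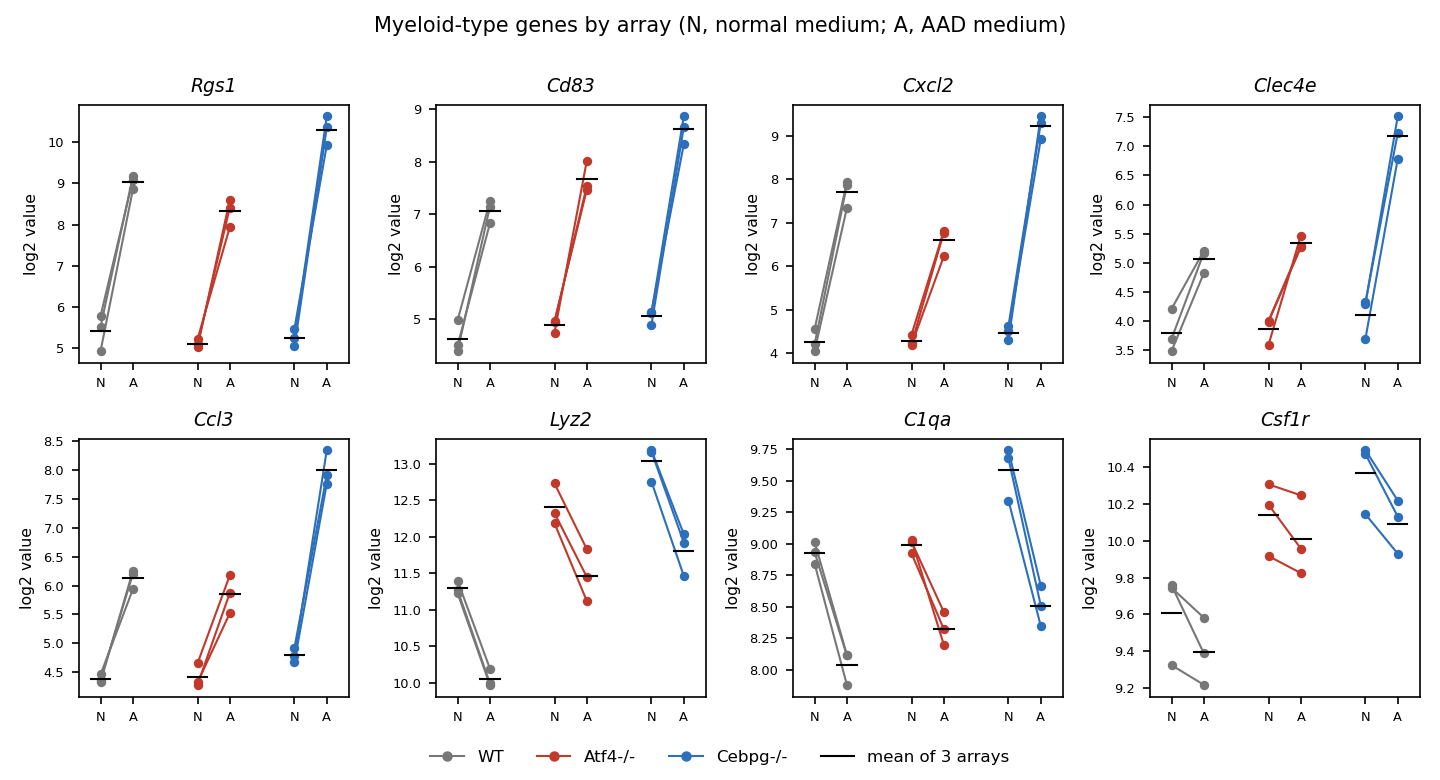
Log2 values of 8 genes of macrophages and other immune cells on every array, in normal (N) and AAD (A) medium; lines join arrays of 1 replicate number and bars mark the mean of 3 arrays. In Atf4-/- cells Rgs1, Cd83, Cxcl2, Clec4e and Ccl3 are higher on every AAD array, Lyz2 and C1qa are lower on every AAD array, and the Csf1r groups overlap.

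Genes of growth factor and ERK signalling were among the largest falls. Of the ERK pathway feedback genes and targets 11 of 24 fell and 3 rose (Dusp4, Spred2 and Dusp7), at a median of -0.16, beside 4.68% called lower over all genes. The falls numbered 10, 10 and 11 without Atf4-/- replicate 1, 2 and 3, and the rises 0, 0 and 1. Without the pairing there were 8 falls and 1 rise. Phlda1, a target of ERK, stood at 12.12, 12.09 and 11.89 in normal medium and at 11.07, 11.14 and 10.91 in AAD medium, a fall of 0.99 ± 0.05 on the log2 scale (adjusted p = 5.26e-06). In WT it was at -0.05 (adjusted p = 0.489), and the responses differed by -0.94 (adjusted p = 1.88e-05).

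Dusp6, an ERK phosphatase gene, went from 10.02, 10.06 and 9.84 to 9.10, 9.21 and 8.83 (-0.93 ± 0.05, adjusted p = 5.58e-06) and fell in WT as well (-0.79), with a 95% interval of the difference from -0.30 to 0.02. Errfi1 (MIG6), an inhibitor of the EGF receptor, went from 11.51, 11.45 and 10.92 to 10.26, 10.33 and 9.92, a response of -1.12 ± 0.06 (adjusted p = 5.26e-06) against -0.12 in WT and a difference of -1.003 (adjusted p = 2.87e-05). Both its probe sets fell. The EGF receptor ligand genes Ereg (-0.84 ± 0.05, adjusted p = 1.44e-05) and Hbegf (-0.45 ± 0.05, adjusted p = 0.000213) also fell, and for Hbegf the WT change was 0.00.

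Rgs16, a regulator of G protein signalling, showed the largest fall. It stood at 10.66, 11.02 and 10.81 in normal medium and at 9.42, 9.61 and 9.43 in AAD medium, while the WT means were 11.00 and 11.02. The response was -1.34 ± 0.10 (adjusted p = 3.34e-05) and differed from WT by -1.36 (adjusted p = 0.0001), and its 2 other probe sets moved by -1.60 and -1.39. Has2, a hyaluronan synthase gene, went from 9.59, 9.57 and 9.23 to 8.51, 8.49 and 8.06 (-1.11 ± 0.06, adjusted p = 5.26e-06), beside -0.32 in WT, from a level in normal medium below the WT mean of 11.28.

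Immediate early genes, which cells switch on within minutes of a stimulus, split from WT. Of 42 members 13 fell, 3 rose (Klf10, Dusp1 and Maff) and 26 were not called in Atf4-/- cells, at a median of -0.11, whereas 26 rose and 5 fell in WT at a median of 0.73. The shares in Atf4-/- cells were 31% lower and 7.14% higher, beside 4.68% and 6.42% over all genes. The falls numbered 10, 9 and 10 and the rises 1, 2 and 1 without Atf4-/- replicate 1, 2 and 3, and without the pairing there were 8 falls and 1 rise. Dusp1 was not called under any of these settings (adjusted p = 0.0629, 0.112, 0.0925 and 0.0821). Ier2 went from 9.94, 9.84 and 9.38 to 8.99, 8.87 and 8.58, a response of -0.90 ± 0.08 (adjusted p = 0.000125) against 0.72 in WT and a difference of -1.62 (adjusted p = 1.13e-05). Fosl1, a gene of the AP-1 family, went from 9.35, 9.20 and 8.77 to 8.52, 8.46 and 8.15, a response of -0.73 ± 0.05 (adjusted p = 3.23e-05) against 0.15 in WT.

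Egr2 and Egr3, zinc finger factors downstream of ERK and SRF, fell as well, with responses of -1.28 ± 0.07 (adjusted p = 6.37e-06) and -1.22 ± 0.15 (adjusted p = 0.000889). Egr2 fell from 9.32, 9.69 and 8.72 to 8.28, 8.26 and 7.34 and Egr3 from 6.52, 6.98 and 6.42 to 5.32, 5.53 and 5.42, although a second, dimmer Egr3 probe set moved by only -0.05. The WT mean of Egr2 fell too, by less, and the difference of -0.62 was not called without the pairing (adjusted p = 0.273). The genes that follow were again chosen after their values were seen. Egr1 was at 11.31, 11.17 and 10.47 and at 10.49, 10.56 and 10.30, with overlapping groups. Its change of -0.53 ± 0.11 (adjusted p = 0.0105) was not called without the pairing (adjusted p = 0.109) or without Atf4-/- replicate 1 or 2 (-0.39 and -0.50, adjusted p = 0.0744 and 0.074). Against the rise of 2.47 in WT the difference was -3.00 (adjusted p = 1.79e-06). Fos changed by 0.05 ± 0.12 (adjusted p = 0.841) and Myc by -0.11 ± 0.07 (adjusted p = 0.318) in Atf4-/- cells, with differences from WT of -2.38 (adjusted p = 1.14e-05) and -1.89 (adjusted p = 1.79e-06).

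**Figure D4:**
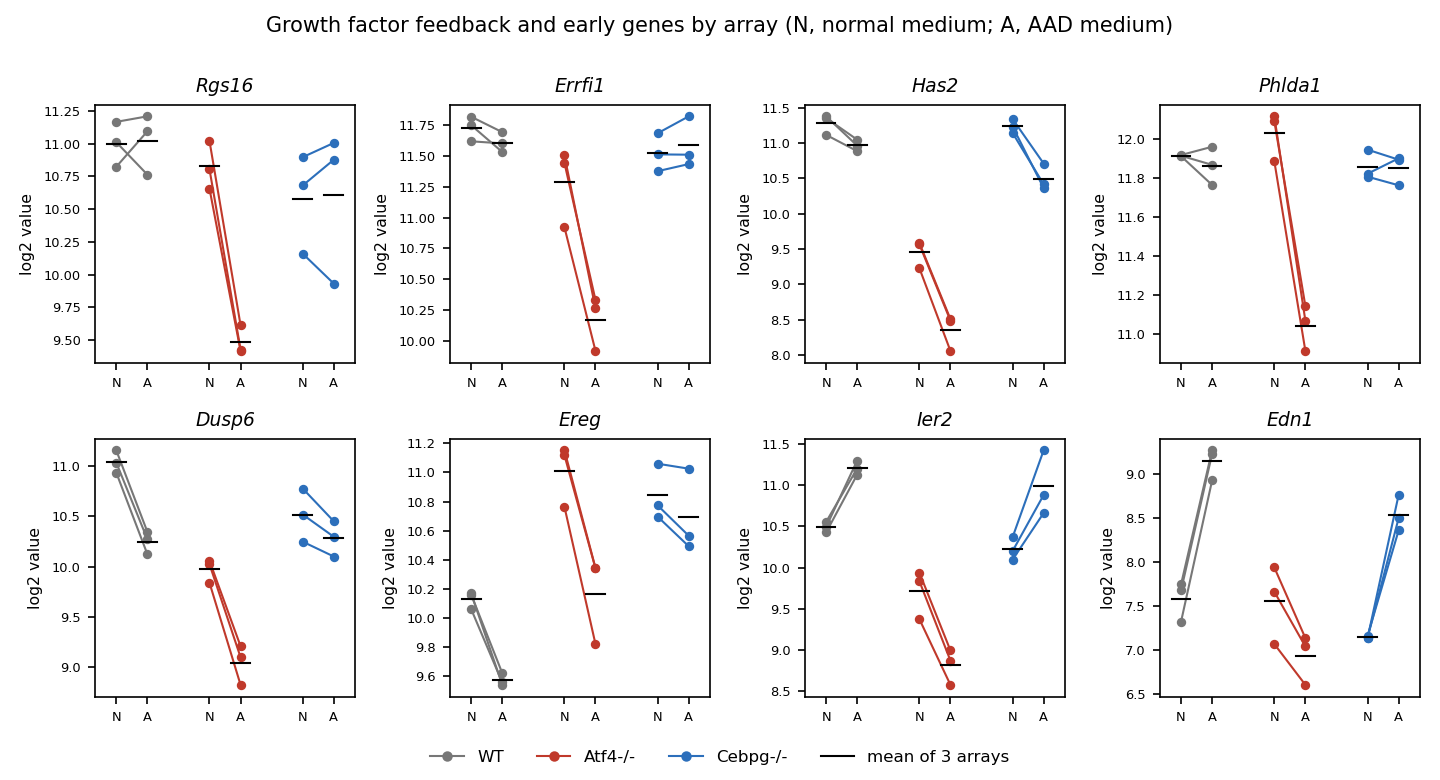
Log2 values of 8 genes of growth factor feedback and early response on every array, in normal (N) and AAD (A) medium; lines join arrays of 1 replicate number and bars mark the mean of 3 arrays. Rgs16, Errfi1 and Phlda1 fall on every Atf4-/- pair while their WT means move by 0.02, -0.12 and -0.05, and Ier2 and Edn1 rise in WT and Cebpg-/- cells but fall in Atf4-/- cells.

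Several other genes went against WT. Edn1, which encodes the vessel-constricting peptide endothelin-1, went from 7.93, 7.66 and 7.06 to 7.13, 7.04 and 6.60, a response of -0.63 ± 0.08 (adjusted p = 0.00107) that was not called without the pairing (adjusted p = 0.0784). Each pair fell although the groups overlapped, and against the rise of 1.56 in WT the difference was -2.19 (adjusted p = 2e-06). Neat1, the long RNA that builds nuclear paraspeckles, went from 10.68, 10.31 and 10.72 to 11.34, 11.17 and 11.44 in Atf4-/- cells (0.75 ± 0.07, adjusted p = 0.000141, or 0.138 without the pairing), fell by 0.71 in WT and rose by 0.42 in Cebpg-/- cells. A second, dimmer Neat1 probe set moved by -0.06. Ppargc1b, a coactivator gene of mitochondrial genes, went from 5.35, 5.62 and 5.36 to 6.27, 6.22 and 6.17 (0.78 ± 0.08, adjusted p = 0.000283) against a fall of 0.41 in WT. Tnfaip2 rose by 0.73 ± 0.05 against -0.17 in WT, a difference of 0.90 (adjusted p = 2.27e-05). Among the YAP and actin-SRF targets 5 of 27 fell (18.5%, beside 4.68% over all genes) and 1 rose, at a median of -0.03. As a list they did not go against WT, where 8 fell and 6 rose at a median of -0.09. Their member Ankrd1 did, going from 12.60, 12.50 and 12.55 to 12.10, 11.95 and 11.98 (-0.54 ± 0.05, adjusted p = 8.24e-05) against a rise of 0.21 in WT. Of these targets 4, 3 and 4 fell and none rose without Atf4-/- replicate 1, 2 and 3.

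Of 44 ribosome biogenesis factors 13 fell (29.5%, beside 4.68% over all genes) and none rose, at a median of -0.11. Of these factors 7, 9 and 7 fell without Atf4-/- replicate 1, 2 and 3 and 5 without the pairing. Ppan, a factor of large subunit assembly, went from 8.93, 8.98 and 8.74 to 8.16, 8.37 and 8.18 (-0.65 ± 0.05, adjusted p = 6.74e-05), a smaller fall than the -1.17 of WT, with a difference of 0.53 (adjusted p = 0.000826). Tsr1, a factor of small subunit assembly, went from 10.95, 10.87 and 10.71 to 10.48, 10.41 and 10.24 (-0.47 ± 0.04, adjusted p = 0.000141) and changed by 0.00 in WT. Of the 29 cytosolic ribosomal protein genes tested only Rpl12 was called, as lower, a call lost without Atf4-/- replicate 1 or 3. Both the collagen and matrix list (23 genes) and the list of aminoacyl-tRNA synthetases had no call.

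Clock genes and transcriptional repressors were among the rises. Of 19 genes of the circadian clock 6 rose (31.6%, beside 6.42% over all genes) and 1 fell, a fall not called without Atf4-/- replicate 1 or 2, with the nuclear receptor gene Rora at 6.85, 6.86 and 6.96 and then 7.73, 7.81 and 7.87 (0.91 ± 0.08, adjusted p = 9.56e-05), with a difference from WT of -1.01. Bhlhe40, a repressor of the clock, went from 8.93, 8.96 and 8.92 to 9.80, 9.78 and 9.70 (0.82 ± 0.06, adjusted p = 3.15e-05), and Nr1d1 (REV-ERBα) rose by 0.63 ± 0.11, with a difference from WT of -1.54. Of 13 Krüppel-like factors 4 rose (30.8%) and 1 fell, a fall not called without Atf4-/- replicate 2 or 3 or the pairing, led by Klf11, which went from 7.86, 7.88 and 7.84 to 8.98, 9.03 and 8.99 (1.14 ± 0.11, adjusted p = 0.000174), with a difference from WT of -1.47. Mnt, a MAX partner that represses MYC targets, rose by 0.92 ± 0.09 (adjusted p = 0.000191). Smad6, an inhibitor of BMP signalling, went from 7.21, 6.82 and 7.49 to 8.08, 8.15 and 8.44 (1.05 ± 0.10, adjusted p = 0.000141), while the BMP target Id1 fell (-0.79 ± 0.07). Gdnf, a neurotrophic factor gene, rose by 1.13 ± 0.13 (adjusted p = 0.000453), with a difference from WT of -1.23.

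Genes of fat use, death and other stress responses gave smaller counts. Beside 6.42% called higher and 4.68% called lower over all genes, 6 of 19 PPAR-type genes rose (31.6%), 6 of 26 p53 targets rose (23.1%) and 4 fell (15.4%), 4 of 16 BCL2 family genes rose (25%), and 8 of 19 glucocorticoid-type targets rose (42.1%) and 1 fell. Without Atf4-/- replicate 1, 2 and 3 the PPAR-type rises numbered 2, 3 and 4 and the p53 falls 2, 2 and 1. Without the pairing there were 3 PPAR-type rises, 4 rises and 2 falls of p53 targets, and 5 glucocorticoid-type rises. The gene lists share members, so their counts are not separate. Ddit4 is in the FOXO-type, stress response, mTORC1, p53 and glucocorticoid-type lists, and Sesn1 in the FOXO-type, mTORC1 and p53 lists. Trp53inp1 is in the FOXO-type and p53 lists, and Bbc3 in the p53 and BCL2 lists. Bbc3, which encodes the death protein PUMA, rose by 0.67 ± 0.09 (adjusted p = 0.00123), with a difference from WT of -0.80 (adjusted p = 0.00148). Of 26 endoplasmic reticulum chaperone and unfolded protein response genes 3 rose (11.5%), Dnajb9, Herpud1 and Edem1, with Hspa5, its main chaperone, at 0.03. Of 20 heat shock genes 4 fell (20%), with Hspa1b at -0.70 ± 0.07 (adjusted p = 0.000249, or 0.0962 without the pairing). Of 30 sterol and fatty acid synthesis genes 2 rose (6.67%, near the share of all genes), Insig1 (0.75 ± 0.08) and Hsd17b7, or 1 without Atf4-/- replicate 1 or 2 or the pairing, whereas 15 fell in WT. Of 34 S-phase and mitosis genes 3 rose and 3 fell (8.82% each), also near the share of all genes. Without Atf4-/- replicate 1, 2 and 3 the rises numbered 1, 1 and 1 and the falls 3, 0 and 3.

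**Figure D5:**
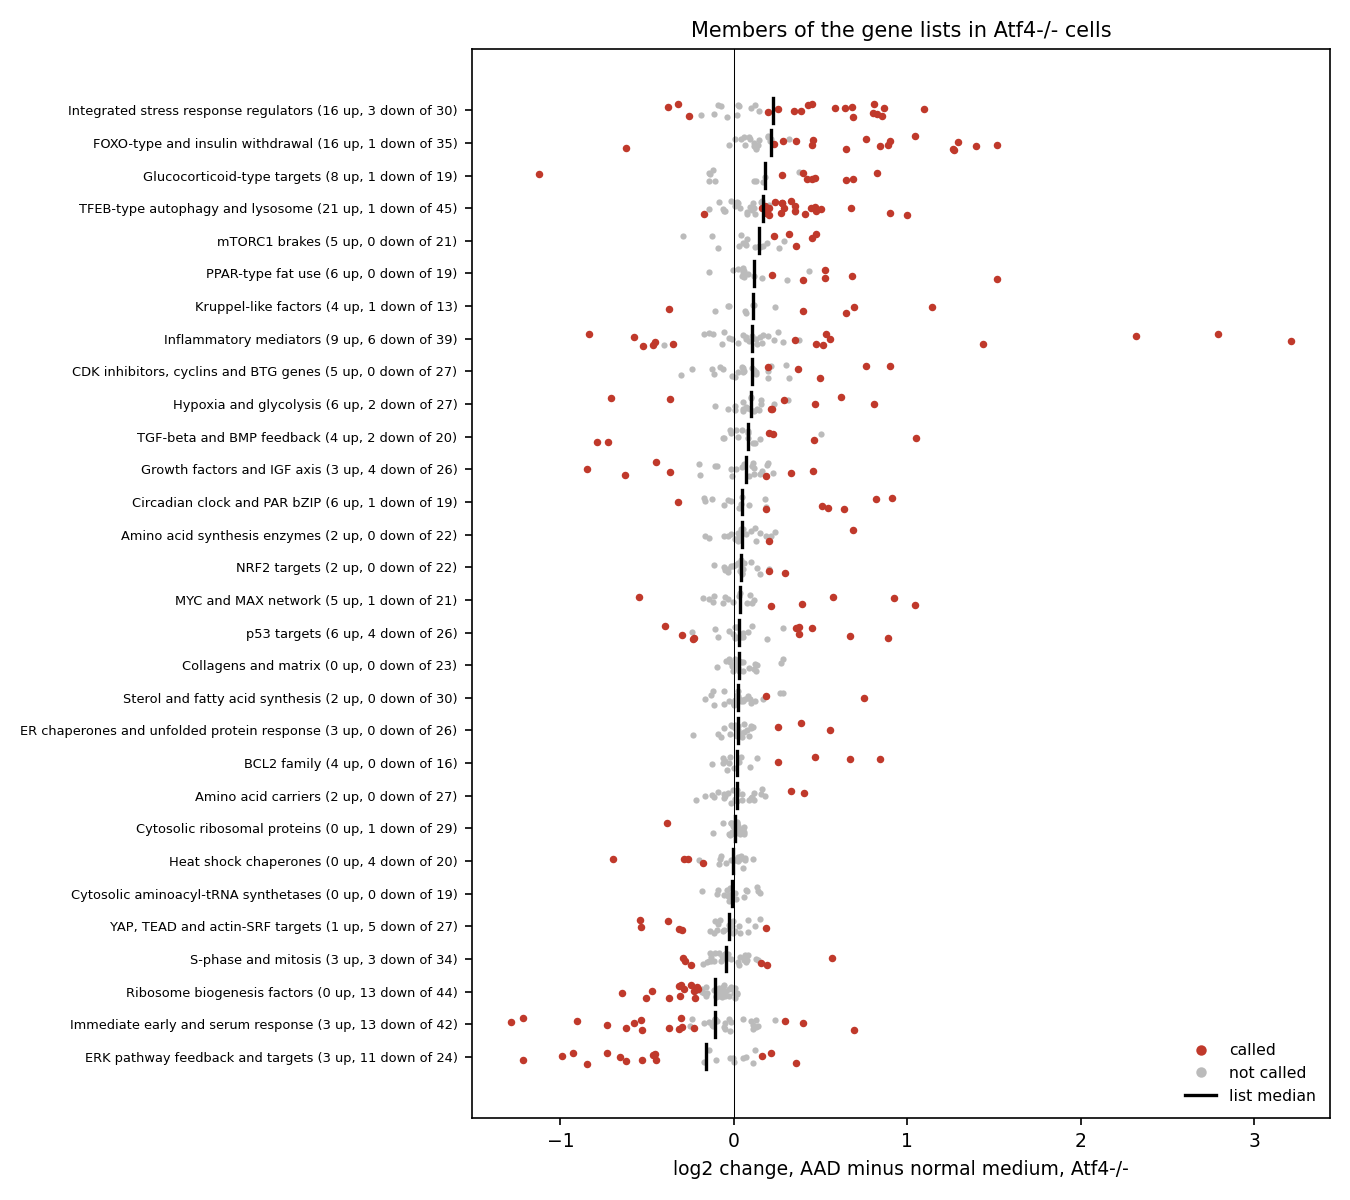
Log2 change under AAD in Atf4-/- cells (x axis, means of 3 pairs) of each tested member of 30 gene lists, with called members in red and a bar at the list median. The integrated stress response, FOXO-type and TFEB-type lists have medians of 0.23, 0.21 and 0.17, and the immediate early and ERK lists have medians of -0.11 and -0.16.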

How the data were processed

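RNA was measured on Affymetrix Mouse Genome 430 2.0 arrays. The authors deposited 1 table of log2 values per probe set, made with RMA per the submitters' processing notes (version not given in the sources used here), with values from 2.15 to 14.56 and array medians of 5.21 to 5.27. They were used without further normalization. Arrays carry no read depth, so the 3 arrays per group limit the precision.

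Of 45101 probe sets, 34958 had 1 gene symbol in the platform annotation, 932 had several and 9211 were not listed, and only the first were used. Of these, 34754 were matched by Entrez identifier to a RefSeq gene table (GRCm38.p6) used for names. A gene was read from its probe set with the highest mean over the 18 arrays (18194 genes). A gene was tested only if at least 1 group mean reached 4.65, the 40th percentile of the deposited values, and 13728 genes did.

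The fit was limma 3.58.1 in R 4.3.3 on all 18 arrays, with 9 blocks of genotype and replicate number and 1 AAD effect per genotype, 6 residual degrees of freedom and moderated variances. Adjusted p-values are Benjamini-Hochberg's over all genes, with a call at an adjusted p under 0.05. Differences between responses were contrasts of the same fit. The block was used because arrays of the same genotype and replicate number in the 2 media deviated together: their residuals from the group means correlated at 0.66, 0.47 and 0.69 in Atf4-/- cells and at 0.30 to 0.69 over all 9 pairs, against -0.56 to 0.09 for other numbers. The labels give the numbers but do not say what they share. Errors of changes are SE, those of levels SD. Summed marker signals are on the linear scale.

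On simulated data with known changes for the response in Atf4-/- cells (13728 genes, 50 changed per fold), 34% of the 1.2-fold changes were found, and 100% of those of 1.5-fold, 2-fold or 3-fold. Of 13528 unchanged genes 11 were called.

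The genes named were Atf4 and Cebpg, the 20 largest rises and 15 largest falls among called genes with the same direction in 3 of 3 pairs, the 4 largest changes in each list, the 5 largest in each class of response, and members of counts of 5 or fewer. The text names part of them, without symbols that are only clone or locus names, and genes outside this rule are given as list members or are said to have been chosen after their values were seen. The comparison, the rule and the lists were chosen with earlier results of these data known. Promoter windows were searched on both strands in python 3.11.15. Alternatives covered the pairing, normalization, filter, probe set, variance model, arrays left out and arrays fitted.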

Additional observations from a re-analysis of the deposited data

Results flagged for a closer look

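The test of the difference between the responses marked 3270 genes for Atf4-/- against WT cells and 1824 genes for Atf4-/- against Cebpg-/- cells. The values that follow are the log2 response in Atf4-/- cells minus that in WT cells, each past the limma adjusted p of 0.05, with standard errors and p-values as far as the report gives them.

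Among genes of nutrient withdrawal, stress and cell death whose rise was smaller than in WT stood Gadd45a (-1.77), Klhl24 (-1.95), Pnrc1 (-1.85), Ddit3 (-1.74), Hbp1 (-1.36), Trp53inp1 (-1.03), Flcn (-1.17), Pdk4 (-1.12), Cxcl2 (-1.12), Ccng2 (-0.84), Irs2 (-0.78), Txnip (-0.58) and Bbc3 (-0.80). Among transcription factors, clock genes and growth factors with a smaller rise stood Klf11 (-1.47), Klf10 (-0.67), Gdnf (-1.23), Nr1d1 (-1.54) and Rora (-1.01). Pik3ip1 differed the other way, with a larger rise (0.74), and Ppan with a smaller fall (0.53).

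Genes that fell in Atf4-/- cells more than in WT, or that were not called in WT, were Rgs16 (-1.36), Egr3 (-1.44), Errfi1 (-1.003), Phlda1 (-0.94), Has2 (-0.79), Tsr1 (-0.47) and Hbegf (-0.45). Genes that fell in Atf4-/- cells and rose in WT were Edn1 (-2.19), Ier2 (-1.62), Fosl1 (-0.88), Ankrd1 (-0.75) and Egr1 (-3.00), and genes that rose in Atf4-/- cells and fell in WT were Neat1 (1.46), Ppargc1b (1.19) and Tnfaip2 (0.90). The genes Trib3 (-2.04), Fos (-2.38) and Myc (-1.89), chosen after their values were seen, rose in WT and were not called in Atf4-/- cells. The difference for Pdk4 was not called without the pairing (adjusted p = 0.115), and the second Egr3 and Neat1 probe sets moved by -0.05 and -0.06 in Atf4-/- cells.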

How the results depend on the processing

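The replicate block had the largest effect. Without it 645 genes were called in Atf4-/- cells (366 higher, 279 lower), and with the Atf4-/- arrays alone 1101 were called with the pairs and 329 (216 higher, 113 lower) without the block. With all arrays and no block the differences numbered 1752 from WT and 728 from Cebpg-/-, and the classes held 250 genes (same direction, no called difference), 145 (weaker than WT), 6 (stronger), 30 (opposite), 75 (not called in WT, difference called) and 139 (not called in WT, no called difference). With 1 Atf4-/- pair left out 686 to 828 genes were called, 382 to 507 higher and 304 to 349 lower, fewer arrays being fitted, and with 1 pair of either genotype left out the differences from Cebpg-/- numbered 1114 to 1361. Under the other alternatives for normalization, filter, probe set and variance model the count lay between 1285 and 2052. The share of higher genes was 57.8% and became 51.5% when the values were quantile-normalized again.

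Of 92 responses of named genes, 15 were not called without the block, 3 and 30 with the Atf4-/- arrays alone with and without it, 5, 10 and 4 without Atf4-/- replicate 1, 2 and 3, and 0 under array centring, array weights, a variance trend or no filter. Of 78 differences from WT, 19 were not called without the block. The response of Cebpg, near 0, became -0.0211 on quantile-normalized values, -0.0368 as the mean of its probe sets, and -0.0267 to 0.0275 with 1 array pair left out (-0.0267 without Atf4-/- replicate 3). The difference from WT became 0.0198 for Ccn1 with the most variable probe set, and 0.57 and 0.0381 for Nfe2l2 with the most variable probe set and the mean of probe sets. Counts for gene lists under these alternatives were added after seeing the data. Probe sets under 4.65 carry little signal over background, which limits the size read for Cxcl2, Ccl3, Clec4e and Slc7a11.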

Other observations

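Some of the largest changes in Atf4-/- cells were in genes outside the lists. Gas2l3, which encodes a protein of the mitotic cytoskeleton, went from 6.20, 6.26 and 6.42 in normal medium to 7.55, 7.61 and 7.52 in AAD medium, a rise of 1.27 ± 0.07 (limma adjusted p = 5.26e-06) beside 1.10 in WT. The 95% interval of the difference ran from -0.04 to 0.38. Ch25h, a cholesterol hydroxylase gene of interferon and macrophage responses, went from 7.41, 7.11 and 7.00 to 6.16, 6.09 and 5.70, a fall of 1.19 ± 0.13 on the log2 scale (adjusted p = 0.000302). Htr1b, a serotonin receptor gene, went from 12.08, 11.91 and 11.73 to 11.26, 11.11 and 10.86 (-0.83 ± 0.05, adjusted p = 1.05e-05), although a second probe set moved by only -0.09. Pdgfra, the receptor of platelet-derived growth factor, was the 1 fibroblast marker that rose (0.79), beside 0.74 in WT, and its 2 other probe sets moved by 0.20 and 0.16.

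Cdt1, which licenses DNA replication, went from 10.25, 10.20 and 10.08 to 10.79, 10.81 and 10.62 (0.56 ± 0.05, adjusted p = 0.000113) and rose by 1.17 in WT.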
